A study of Arabidopsis thaliana with 12 samples.

Results

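The comparison described here set Arabidopsis thaliana seedlings that lack GTE4 and also carry mutations in EML1 and EML2 against seedlings that lack GTE4 alone, and so asked what the added EML mutations changed once GTE4 was already mutated. It rests on 6 of the 12 RNA-seq libraries of the series, 3 of the genotype gte4-/- and 3 of the genotype gte4-/- eml1-/- eml2-/-, called gte4 and the triple mutant below. All 3 mutated alleles are those of the labels, which name neither the lines nor the kind of mutation, and every library of the comparison carries gte4-/-. The other libraries, 3 of wild type and 3 of eml1-/- eml2-/- (eml1 eml2), served to measure the difference between EML genotypes with GTE4 intact. RNA came from whole seedlings aged 20 days, grown for 12 days on plates and then in soil at 22 °C with 16 h of light. Of 32548 genes in the deposited table, the 22315 with a mean value of at least 1 over all 12 libraries were tested.

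GTE4 belongs to the bromodomain proteins, which bind acetylated lysines of histone tails and are linked to the activity of transcribed genes. EML1 and EML2 belong to the EMSY-like family, plant proteins with an ENT domain and a Tudor-like domain, the second being a fold that in many chromatin proteins binds methylated histones. In Arabidopsis, EML proteins are known for a role in immunity to a downy mildew pathogen and in seed development, and GTE4 for a role in cell division in the root. The series title links these proteins to a complex that reads histone marks.

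Upstream sequences of 4 genes are shown first, since members of the salicylic acid and immunity list that fell, and genes for the pollen wall polymer that rose, make up much of what follows. Each is the 250 bases just before the annotated gene start in RefSeq's TAIR10.1, written 5′ to 3′ on the strand of the gene. PCC1 lies on the minus strand (chr3:7846834-7847083), as does NIMIN-2 (chr3:9471040-9471289), and MS2 (chr3:3813981-3814230) and CYP704B1 (chr1:26123690-26123939) lie on the plus strand. In the immunity genes PCC1 and NIMIN-2 the capitals mark TGACG on either strand, the core that TGA factors are known to bind. In the pollen wall genes MS2 and CYP704B1 they mark CANNTG on either strand, the E-box core of bHLH factors, which includes the G-box CACGTG.

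PCC1: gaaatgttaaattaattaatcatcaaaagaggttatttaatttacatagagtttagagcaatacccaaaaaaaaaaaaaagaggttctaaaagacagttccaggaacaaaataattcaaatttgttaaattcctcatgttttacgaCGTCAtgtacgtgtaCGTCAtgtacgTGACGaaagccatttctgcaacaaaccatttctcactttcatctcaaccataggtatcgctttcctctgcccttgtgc
NIMIN-2: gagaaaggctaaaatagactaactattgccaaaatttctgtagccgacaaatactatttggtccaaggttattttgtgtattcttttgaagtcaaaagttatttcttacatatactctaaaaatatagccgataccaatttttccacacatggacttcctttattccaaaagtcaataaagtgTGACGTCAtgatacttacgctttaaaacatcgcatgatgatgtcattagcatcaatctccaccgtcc
MS2: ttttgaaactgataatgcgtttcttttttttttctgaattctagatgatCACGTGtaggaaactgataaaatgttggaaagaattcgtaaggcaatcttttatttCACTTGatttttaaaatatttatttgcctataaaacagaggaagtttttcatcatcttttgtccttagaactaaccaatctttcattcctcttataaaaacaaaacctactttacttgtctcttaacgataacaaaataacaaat
CYP704B1: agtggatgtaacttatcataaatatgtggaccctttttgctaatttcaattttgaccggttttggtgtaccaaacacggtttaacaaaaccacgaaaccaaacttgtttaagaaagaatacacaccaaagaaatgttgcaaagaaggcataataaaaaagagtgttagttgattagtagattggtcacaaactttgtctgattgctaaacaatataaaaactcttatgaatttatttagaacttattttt

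PCC1 held 3 matches, which began 104, 89 and 78 bases before the start, and NIMIN-2 held 2 that overlap, at 67 and 64 bases, as the palindrome of the motif. MS2 held 2, of which the one at 201 bases is also a G-box, and CYP704B1 held none. TGACG occurred in 19.2% of the 21413 upstream windows of tested protein-coding genes, in 8 of the 32 windows of the salicylic acid and immunity list and in 4 of the 8 of its members that fell. CANNTG occurred in 56.1% of all windows, in 9 of the 16 of the tapetum and pollen wall list and in 4 of the 5 members that rose. Among all genes that fell once a trend with gene length was removed, 21.4% of 290 windows held TGACG, and among those that rose 55.2% of 210 held CANNTG, both close to the share over all windows. These matches describe the letters of the windows and no binding was measured.

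The mutated genes were checked first. EML2 (AT5G06780) stood at 580.3, 597.0 and 520.6 normalized counts in the gte4 libraries and at 32.1, 28.8 and 31.4 in the triple mutant. This 17.8-fold fall had a log2 change of -4.16 (SE 0.114, limma adjusted p = 8.6e-13), and the genotypes did not come near each other. In eml1 eml2 it had stood at 116.8, 112.1 and 94.7 against 612.3, 548.7 and 546.3 in wild type, so the fall was larger in the gte4 background, and the test of that difference gave a log2 value of -1.77 (adjusted p = 1.59e-05). EML1 (AT3G12140) did not pass the test and its values overlapped, with 907.3, 978.4 and 1014.6 in gte4 and 972.7, 1043.0 and 997.2 in the triple mutant (log2 change 0.06, adjusted p = 0.679). Since a gene total says nothing of where a transcript is broken, these values do not test the eml1-/- genotype. GTE4 (AT1G06230) was low in both genotypes, at 64.7, 99.2 and 61.0 in gte4 and 97.3, 93.9 and 78.6 in the triple mutant, and the difference missed the threshold (adjusted p = 0.227) except without gte4 replicate 2 (0.0286). The related EML3 and EML4 did not pass the test (adjusted p = 0.806 and 0.396).

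Between the triple mutant and gte4, 2131 genes differed at an adjusted p under 0.05, which is 9.55% of the genes tested. Of these, 998 were higher in the triple mutant (4.47%) and 1133 lower (5.08%), and 83 changed by more than 2-fold. Values of the 2 genotypes did not overlap for 29.8% of all genes. Scaling by library totals turned the split into 1097 higher and 618 lower. The count rested on single libraries: it was 453 without gte4 replicate 1, 271 without gte4 replicate 2, 3023 without gte4 replicate 3, and 1484, 436 and 1198 without triple mutant replicates 1, 2 and 3. Of the 2131 genes, 245 were called in each of these 6 fits, 96 higher and 149 lower.

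The log2 change followed the length of the gene's exons. Over 16738 genes with a mean of at least 50, Spearman's rho between exon length and log2 change was 0.519, a description across genes, which are not independent replicates. In the shortest of 5 length classes, up to 1242 bases, 18 genes were higher and 574 lower, whereas in the longest, from 2669 bases, 717 were higher and 34 lower. The same trend could be seen in single libraries: rho between exon length and a library's deviation from the mean of all 12 was -0.388, -0.447 and -0.143 in the gte4 libraries and 0.207, 0.355 and 0.183 in the triple mutant. It also ran at -0.004, -0.237 and -0.152 in wild type and at 0.355, 0.271 and 0.257 in eml1 eml2, so it moved with the EML genotype in both backgrounds. Whether it came from the plants or from the libraries was not tested. With the trend removed in each library, rho was -0.013 and 514 genes were called (2.3%), 222 higher (0.995%) and 292 lower (1.31%). Of the 2131 genes, 434 were among these 514, all in the same direction, which is 20.4% of the first list and 84.4% of the second. There were 163 genes, 46 higher and 117 lower, that were called with this correction and in each of the 6 fits with a library left out.

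**Figure D1:**
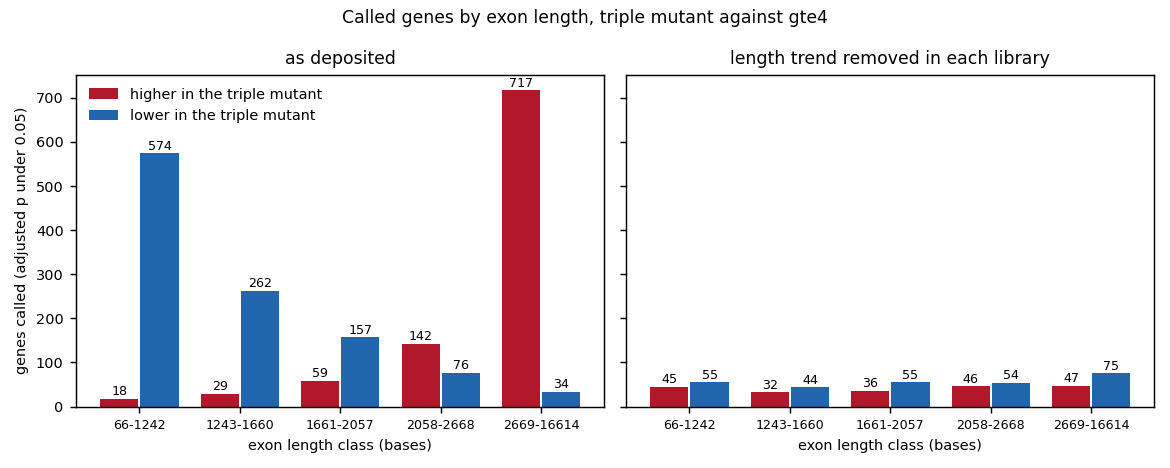
Number of genes called between the triple mutant and gte4 (y axis, adjusted p under 0.05) in 5 classes of exon length (x axis, bases), among 16738 genes with a mean of at least 50. As deposited (left), 574 short genes were lower and 717 long genes higher, and with the length trend removed in each library (right) no class exceeded 75 calls in either direction.

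Of 119 genes chosen for naming, 98 were called, and 23 of these were called under every alternative setting that tested them: EML2, ARP9, LAP5, CYP704B1, MEE48, DRL1, PLE and AT2G04852, together with LURP1, NIMIN1, PCC1, ACD6, WRKY54, AOC2, ERF2, CAX3, RBCS2B, LHCB4.3, FER4, COR15A, AT1G73325, AT1G24147 and AT1G21550. For 21 of the 23 that was all 19 settings, and for AT1G73325 and AT2G04852 it was 18, since their means lie under the filter of at least 20. The naming rule mainly took genes already called, so 98 of 119 does not measure how often genes were called. Of the 23, LURP1, CAX3, ARP9, DRL1, WRKY54 and ACD6 were added after their values were seen, so the 23 do not stand for all called genes. For any other called gene described below in Results, the libraries or settings under which its call was lost are given with the adjusted p. Called genes outside the 23 that only the closing sections name also lost the call under some setting, mostly without details there. The gene lists are described by their counts of called members, to be read against the shares of all genes given above.

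Several genes that build sporopollenin, the tough polymer of the pollen wall, rose in the triple mutant. They are described one by one, together with MEE48, which is annotated as a hydrolase and is not counted among them. LAP5, LAP6 and MEE48 lie outside the fixed list for the tapetum and pollen wall, whose counts follow. LAP5 (AT4G34850), a polyketide synthase of this pathway, stood at 58.9, 41.3 and 47.6 in gte4 and at 114.2, 151.9 and 129.8 in the triple mutant, a 2.66-fold rise (log2 change 1.41, SE 0.203, adjusted p = 0.00211). All 3 triple mutant libraries lay above all 3 gte4 libraries. CYP704B1 (AT1G69500), which hydroxylates long-chain fatty acids for the same polymer, stood at 47.1, 44.2 and 31.8 in gte4 and at 80.3, 146.8 and 119.3 in the triple mutant (log2 change 1.45, SE 0.225, adjusted p = 0.00324). DRL1 (AT4G35420), the reductase of the tetraketide made by the synthases, rose from 165.7, 177.5 and 189.7 to 259.9, 313.6 and 282.5 (log2 change 0.68, adjusted p = 0.00528). MEE48 (AT4G14080), annotated as a glycosyl hydrolase of family 17, rose from 167.1, 97.6 and 123.5 to 312.9, 384.7 and 367.2 (log2 change 1.48, adjusted p = 0.00805).

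More enzymes of the pathway were called with less support. MS2 (AT3G11980), the fatty acyl reductase, stood at 125.0, 64.5 and 76.6 in gte4 and at 149.5, 232.3 and 257.1 in the triple mutant. The log2 change of MS2 was 1.27 (adjusted p = 0.0105), a call lost without gte4 replicate 2 (0.0608), without triple mutant replicate 2 (0.0551), with no filter on low values (0.0681) and without the mean-variance trend (0.0522). ACOS5 (AT1G62940), which activates the fatty acids, rose by 1.19 on the log2 scale (adjusted p = 0.0216), lost without gte4 replicate 2 (0.101), triple mutant replicate 2 (0.0927) or triple mutant replicate 3 (0.055), with no filter (0.0927) and without the trend (0.0644). LAP6 (AT1G02050), the partner of LAP5, stood at 196.4, 157.5 and 173.0 in gte4 and at 267.0, 325.1 and 308.6 in the triple mutant (log2 change 0.77, adjusted p = 0.00702), lost without gte4 replicate 2 (0.0537), with no filter (0.0623) and without the trend (0.0515). CYP703A2 (AT1G01280), another fatty acid hydroxylase of the pathway, did not pass the test (log2 change 1.28, adjusted p = 0.0929).

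Of 4 oleosins of the later pollen coat in the same list, 1 was lower and 0 higher. GRP14 (AT5G07510), a glycine-rich oleosin of the pollen coat, was lower in the triple mutant, with 25.9, 37.1 and 21.8 in gte4 and 4.71, 9.0 and 5.26 in the triple mutant (log2 change -2.01, SE 0.376, adjusted p = 0.00666, and 0.0525 without gte4 replicate 2). GRP19 (AT5G07550), another such oleosin, stood at 186.4, 146.7 and 103.7 in gte4 and at 26.3, 61.5 and 66.7 in the triple mutant, and did not pass the test (log2 change -1.55, adjusted p = 0.326), nor did GRP16 (-1.03, 0.513) and GRP17 (-1.03, 0.686). Over the tapetum and pollen wall list, the tapetum being the anther layer that feeds the pollen, 5 of 16 tested members were higher and 1 lower, with a median log2 change of 0.70 against -0.01 over all genes. After the length correction 4 were higher and 1 lower. The count of higher members was 5, 2 and 4 without gte4 replicates 1, 2 and 3, and 5, 2 and 3 without triple mutant replicates 1, 2 and 3.

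Marker genes of flowers were measured beside this group. The summed level of 10 floral organ identity genes ran from 805 to 874 in gte4 and from 870 to 1136 in the triple mutant, and 0 of the 10 were called by limma (2 at an unadjusted p under 0.05, and 0 without the mean-variance trend). The 7 tapetum markers summed to 528 to 812 in gte4 and 558 to 939 in the triple mutant, with 3 higher and none of them below a value of 1 in both genotypes. Those 3 were MS2, ACOS5 and CYP704B1, and GRP17 and GRP19 are also among the markers. All of these are described above, so this sum is no separate measure of the tapetum. In RNA of whole seedlings, fewer cells of a type and less RNA per cell cannot be told apart. The part of flower bud number in the sporopollenin result was not tested. Of 13 floral promoters limma called 0 (1 at an unadjusted p under 0.05, and 0 without the trend). SOC1 stood at 2081.8, 2103.7 and 2048.9 in gte4 and at 2049.4, 2058.9 and 2076.0 in the triple mutant (adjusted p = 0.924). FT (adjusted p = 0.82) and FLC (0.405, with 68.1% of its exon bases shared with another gene) did not pass the test. MAF5 (AT5G65080), a relative of the floral repressor FLC, was lower in the triple mutant at 12.4, 10.2 and 3.24 against 42.2, 54.7 and 70.0 (log2 change -2.69, SE 0.53, adjusted p = 0.0106), a call lost without gte4 replicate 2 (0.0593), with no filter (0.0686) and without the trend (0.0522).

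In the list for salicylic acid and immunity, 8 of 32 tested members fell and 0 rose. Salicylic acid is the hormone that turns on defence against biotrophic pathogens, through the receptor NPR1 and a set of WRKY factors. The log2 change lay below 0 in 29 of the 32, with a median of -0.49, and EDS1 (-0.02, adjusted p = 0.916), ICS1 (-0.01, 0.983), PBS3 (0.22, 0.412) and PR1 (-0.67, 0.401) were among those that did not pass. Removing the length trend left 0 higher and 8 lower. The number lower was 4, 4 and 9 without gte4 replicates 1, 2 and 3, and 7, 5 and 6 without triple mutant replicates 1, 2 and 3.

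PCC1 (AT3G22231), a small membrane-linked protein under pathogen and clock control, stood at 806.5, 1084.5 and 920.0 in gte4 and at 450.3, 510.8 and 451.1 in the triple mutant, a 1.98-fold fall (log2 change -0.98, SE 0.105, adjusted p = 0.000462). NIMIN1 (AT1G02450), which binds NPR1, stood at 99.1, 118.0 and 109.9 in gte4 and at 55.0, 60.4 and 44.1 in the triple mutant (log2 change -1.03, SE 0.184, adjusted p = 0.00571). In both genes the groups were separated by a wide gap. WRKY54 (AT2G40750), a transcription factor induced by salicylic acid, fell from 1116.9, 1333.9 and 1140.5 to 705.2, 867.9 and 649.0 (log2 change -0.70, adjusted p = 0.00156). ACD6 (AT4G14400), a membrane protein that promotes salicylic acid defence, fell from 9468.7, 10811.4 and 8606.3 to 5645.4, 6670.9 and 4920.4 (log2 change -0.75, adjusted p = 0.00636). LURP1 (AT2G14560), a defence gene outside the list that is induced by downy mildew, fell 2.26-fold, from 3375.0, 4446.2 and 3245.0 to 1472.5, 1903.0 and 1502.8 (log2 change -1.18, adjusted p = 0.00418).

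PNP-A (AT2G18660), a natriuretic peptide, and NIMIN-2 (AT3G25882) were called with less support. PNP-A stood at 243.5, 181.3 and 178.2 in gte4 and at 71.5, 76.9 and 90.9 in the triple mutant (adjusted p = 0.0135), and its call was lost without gte4 replicate 1 (0.0659), gte4 replicate 2 (0.0608) or triple mutant replicate 2 (0.0655), with no filter (0.0801) and without the trend (0.0563). NIMIN-2 stood at 90.2, 88.6 and 74.9 in gte4 and at 55.8, 42.6 and 41.9 in the triple mutant (adjusted p = 0.013), and its call was lost without the same libraries (0.0646, 0.0704 and 0.0632), with no filter (0.0517) and with the length trend removed (0.0755). The immune receptors of the NLR class, which recognise pathogens, had 5 of 19 higher and 0 lower as deposited, 0 higher and 1 lower after the length correction, and 0 higher and 4 lower with a replicate block added to that correction. Their median exon length was 3991 bases, in the longest class. The 5 higher calls became 0 without gte4 replicate 1, gte4 replicate 2, triple mutant replicate 1 or triple mutant replicate 2, 8 without gte4 replicate 3 and 3 without triple mutant replicate 3.

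Of 33 tested jasmonate genes, 8 fell and 0 rose, 30 of 33 lay below 0 and the median log2 change was -0.37; with the length trend removed 4 were lower. The number lower was 1, 3 and 5 without gte4 replicates 1, 2 and 3, and 4, 1 and 2 without triple mutant replicates 1, 2 and 3. AOC2 (AT3G25770), the allene oxide cyclase of jasmonate synthesis, fell 1.61-fold, from 3369.3, 3500.5 and 2985.1 to 2099.7, 1871.5 and 2150.2 (log2 change -0.69, SE 0.0793, adjusted p = 0.000647). LOX3 (AT1G17420), a lipoxygenase that starts the pathway, stood at 539.4, 468.1 and 543.1 in gte4 and at 401.8, 409.1 and 387.2 in the triple mutant (log2 change -0.37, adjusted p = 0.0201), with the call lost without gte4 replicate 1 (0.091), triple mutant replicate 2 (0.0646) or triple mutant replicate 3 (0.0628), with scaling by library totals (0.05), with no filter (0.0801) and without the trend (0.0644). ERF2 (AT5G47220), an ethylene response factor that also responds to jasmonate, fell from 122.7, 132.0 and 146.7 to 48.5, 48.4 and 66.8 (log2 change -1.29, SE 0.222, adjusted p = 0.00461).

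Touch and rapid stress genes, which are turned on within minutes of handling, were measured beside both defence groups. Of 14 tested, limma called 0 (1 at an unadjusted p under 0.05, and 0 without the trend), with a median log2 change of -0.68 and 13 below 0. TCH4 (AT5G57560), a cell wall enzyme induced by touch, stood at 614.7, 1659.7 and 9331.7 in gte4 and at 750.0, 1720.0 and 4389.5 in the triple mutant, so it varied more within a genotype than between them. Replicate 3 was also its highest library in wild type (476.8, 2355.8 and 8597.0) and in eml1 eml2 (584.9, 2066.3 and 10229.0). With the replicate number as a block, 4 of the 14 were lower and 0 higher. Their part in the fall of defence genes was not tested. Other falls among calcium and defence related genes were AT1G21550, annotated as a calcium-binding EF-hand protein, from 219.3, 217.4 and 220.7 to 96.2, 88.4 and 86.9 (adjusted p = 0.00128), and CAX3 (AT3G51860), a proton-coupled calcium exchanger, from 654.3, 630.1 and 535.2 to 323.3, 315.0 and 255.6 (adjusted p = 0.00128). AT1G73325, annotated in the Kunitz family of protease inhibitors, fell 4.44-fold, from 27.8, 23.9 and 18.1 to 4.6, 3.51 and 5.22 (adjusted p = 0.00571).

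**Figure D2:**
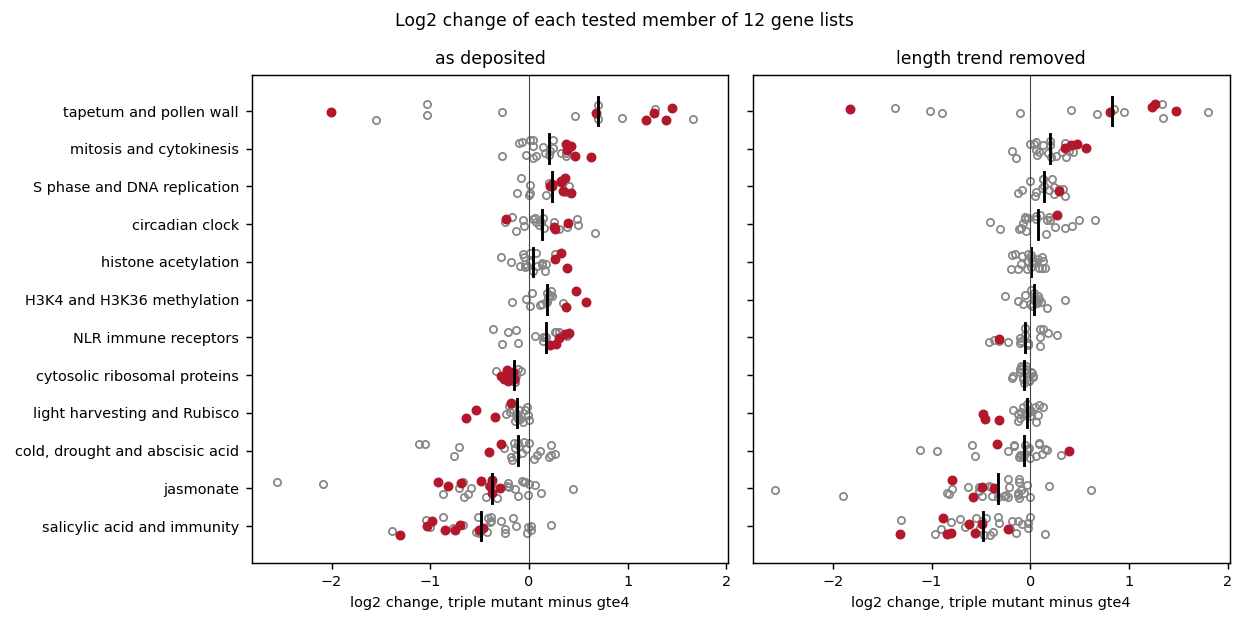
Log2 change between the triple mutant and gte4 (x axis) of every tested member of 12 gene lists (y axis), as deposited (left) and with the length trend removed (right). Filled points passed an adjusted p of 0.05, open points did not, and black bars mark the list median; of the lists drawn, that for salicylic acid and immunity has the lowest median, -0.49 as deposited; the touch and rapid stress list, at -0.68, is not drawn.

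Of 23 mitosis and cytokinesis genes, 5 rose and 0 fell, with a median log2 change of 0.20, and 4 were higher with the length trend removed. The number higher was 2, 2 and 6 without gte4 replicates 1, 2 and 3, and 6, 2 and 4 without triple mutant replicates 1, 2 and 3. PLE (AT5G51600), a microtubule bundling protein of the cell plate, rose from 656.8, 651.0 and 721.7 to 862.6, 982.0 and 893.7 (log2 change 0.43, SE 0.0815, adjusted p = 0.00666). HIK (AT1G18370), a kinesin needed for cytokinesis, rose 1.54-fold, from 935.2, 936.6 and 1047.6 to 1400.0, 1646.8 and 1464.0 (adjusted p = 0.00666, and 0.0531 with no filter). CYCB1;2 (AT5G06150), a cyclin of mitosis, stood at 626.9, 650.0 and 798.0 in gte4 and at 871.6, 917.0 and 900.9 in the triple mutant (adjusted p = 0.0117), and its call was lost without gte4 replicate 1 (0.0676), gte4 replicate 2 (0.0725) or triple mutant replicate 2 (0.059), with no filter (0.0652) and without the trend (0.056). The summed level of 6 markers of dividing cells ran from 4057 to 4701 in gte4 and from 5189 to 5997 in the triple mutant. HIK and CYCB1;2 are among these 6, so the sum is no separate measure of dividing cells.

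Of 17 DNA replication genes tested, 8 were higher and 0 lower as deposited, and 1 was higher with the length trend removed (5 with a replicate block added). The median log2 change was 0.23 as deposited and 0.14 with the trend removed, 11 and 9 members lay at an unadjusted p under 0.05, and the median exon length was 2649 bases. The 8 became 1, 0 and 9 without gte4 replicates 1, 2 and 3, and 6, 0 and 4 without triple mutant replicates 1, 2 and 3. MCM2 (AT1G44900), a subunit of the replicative helicase, stood at 1130.7, 1023.4 and 1247.3 in gte4 and at 1359.8, 1615.8 and 1421.1 in the triple mutant (adjusted p = 0.0202, and 0.0842 with the trend removed), with the call also lost without gte4 replicate 1 (0.0788), gte4 replicate 2 (0.114) or triple mutant replicate 2 (0.104), with no filter (0.11) and without the mean-variance trend (0.0821). ARP9 (AT5G43500), an actin-related protein, was added to the named genes after its values were seen. It had the firmest rise among the named genes, from 581.6, 626.9 and 656.6 to 1263.8, 1191.2 and 1163.7 (log2 change 0.96, SE 0.0825, adjusted p = 2.43e-05). Its values did not come near each other between the genotypes.

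Several lists of chromatin and translation genes had members called as deposited and none after the length correction. Of 19 cytosolic ribosomal protein genes, whose median exon length was 1166 bases, 0 were higher and 10 lower, and 0 were called in either direction with the trend removed (3 at an unadjusted p under 0.05). The 10 became 1, 1 and 13 without gte4 replicates 1, 2 and 3, and 8, 1 and 6 without triple mutant replicates 1, 2 and 3. With GTE4 intact, 7 of the 19 were higher and 0 lower in eml1 eml2 as deposited, with a median log2 change of 0.10. The difference between the backgrounds, described below, was called as deposited for 12 of the 19, against 2.94% of all genes. Histone methylation genes for H3K4 and H3K36, with a median exon length of 3615 bases, had 3 higher of 17, histone acetylation genes 3 higher of 21, and Polycomb genes 3 higher of 14, and with the trend removed limma called 0 in each of these lists (2, 1 and 4 at an unadjusted p under 0.05). Without gte4 replicates 1, 2 and 3 and triple mutant replicates 1, 2 and 3, the higher counts were 3, 2, 5, 5, 3 and 3 for histone methylation, 1, 1, 5, 2, 1 and 3 for acetylation and 0, 0, 4, 1, 0 and 1 for Polycomb. ATXR3 (AT4G15180), the main H3K4 trimethylase of the plant, stood at 2033.6, 2100.5 and 2302.8 in gte4 and at 2841.9, 3234.6 and 2905.9 in the triple mutant (log2 change 0.48, adjusted p = 0.00324), and its log2 change was 0.11 with the length trend removed (adjusted p = 0.224, and 0.173 with a replicate block as well). SDG8 (AT1G77300), an H3K36 methyltransferase, likewise had an adjusted p of 0.00587 as deposited and 0.444 with the trend removed (0.365 with the block as well).

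Among genes of light use and cold, single members fell. RBCS2B (AT5G38420), a small subunit of Rubisco, stood at 25366.5, 28825.9 and 26187.2 in gte4 and at 16311.6, 16578.3 and 18887.1 in the triple mutant (log2 change -0.64, SE 0.0723, adjusted p = 0.000548). LHCB4.3 (AT2G40100), an antenna protein of photosystem II, fell from 2611.5, 2633.6 and 2221.5 to 1701.5, 1796.1 and 1628.3 (adjusted p = 0.00285). These were among 4 lower and 0 higher of 22 light-harvesting and Rubisco genes, 3 lower with the length trend removed, and the summed level of 4 leaf mesophyll markers ran from 931084 to 1001252 in gte4 and from 788303 to 926951 in the triple mutant. By limma 0 of these 4 markers were called (2 at an unadjusted p under 0.05, and 0 without the trend), and their part in the fall of these genes was not tested. COR15A (AT2G42540), a cold-induced protein of the chloroplast, fell from 3890.5, 3786.4 and 3567.6 to 2786.6, 2868.2 and 2879.6 (adjusted p = 0.00325). FER4 (AT2G40300), an iron storage ferritin, fell from 1921.6, 1943.1 and 1744.7 to 1542.5, 1348.5 and 1351.0 (adjusted p = 0.00461). Limma called 0 members in either direction of the lists for glucosinolate synthesis (23 tested, 6 at an unadjusted p under 0.05), auxin (14 and 1), heat shock (10 and 1), DNA damage (10 and 2) and phosphate starvation (11 and 2), and 0 in each without the trend. Without gte4 replicate 3, 1 member was called in each of these lists but auxin.

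Among the named genes, 2 non-coding RNAs had the largest rises. AT2G24735, annotated as a non-coding RNA, stood at 2.13, 0.0425 and 1.84 in gte4 and at 45.9, 37.0 and 50.1 in the triple mutant (log2 change 4.42, SE 0.741, adjusted p = 0.00515, and 0.05, just over the threshold, with no filter). AT3G05955, a long non-coding RNA, stood at 3.44, 19.9 and 11.0 in gte4 and at 106.8, 114.4 and 99.5 in the triple mutant (log2 change 3.38, adjusted p = 0.0067, and 0.0507 with no filter). In eml1 eml2 the first stood at 1.29, 22.1 and 9.94 and the second at 15.1, 29.7 and 4.78, below every triple mutant library. AT2G04852, a long non-coding RNA with 47.9% of its exon bases shared with another gene, rose from 6.48, 6.86 and 8.27 to 25.2, 19.7 and 27.2 (adjusted p = 0.00666); the strand of the reads is not stated, so its signal cannot be told apart from that of its partner. Genes not annotated as protein coding, a class not limited to non-coding RNAs, were called less often than all genes as a plain count. The count was 24 of 901 (2.66%) against 9.55%, a difference that was not tested.

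**Figure D3:**
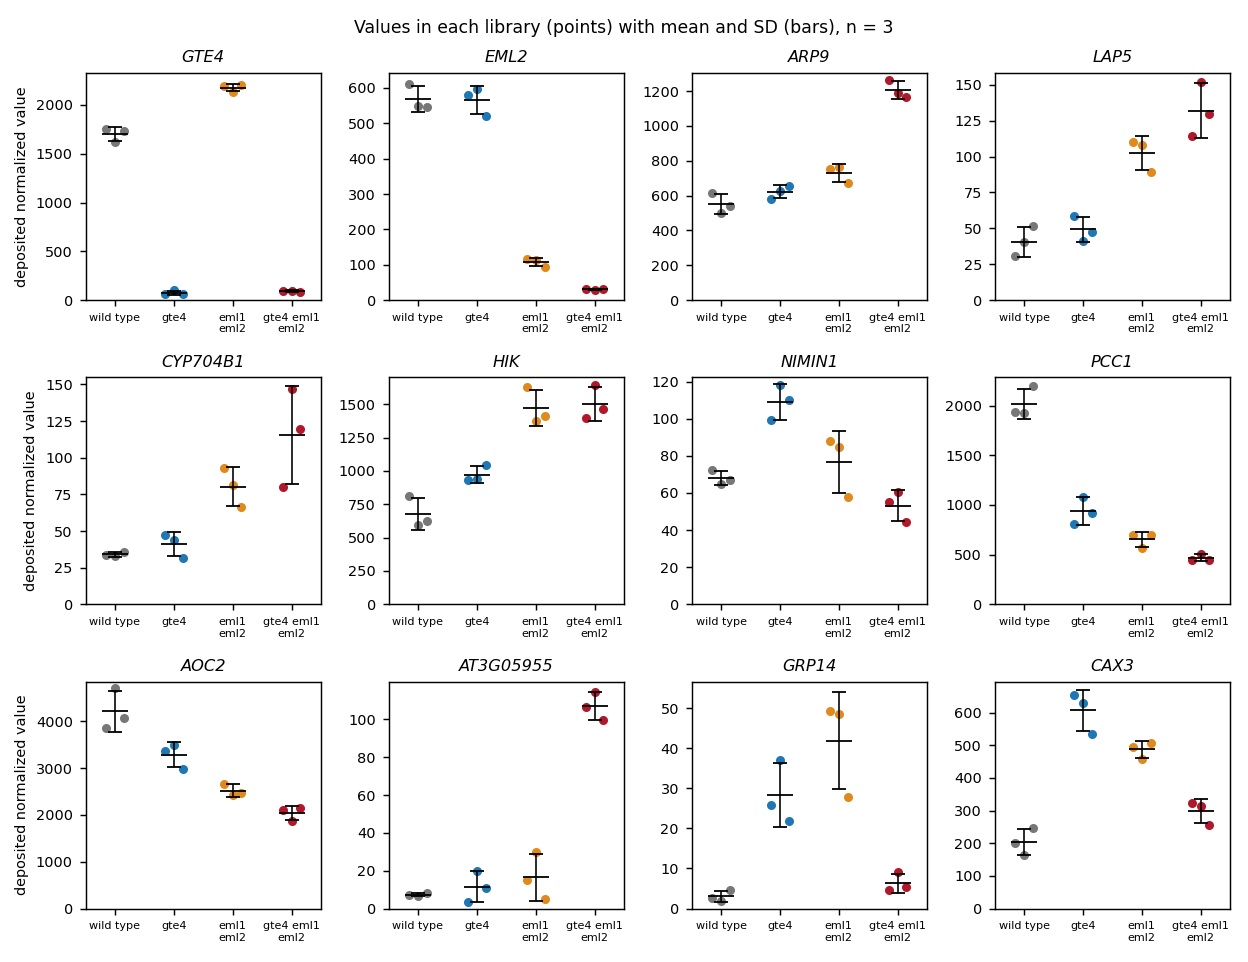
Deposited normalized value (y axis, linear and starting at 0) of 12 genes in each library of the 4 genotypes (x axis), with points for libraries and bars for mean and SD (n = 3). EML2 lies near 30 in the triple mutant against 520.6 or more in gte4, ARP9 and AT3G05955 are highest in the triple mutant, and GRP14 and CAX3 are raised in gte4 and lower in the triple mutant.

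The same EML difference was then measured with GTE4 intact, from libraries that the comparison above does not use. Between eml1 eml2 and wild type 5271 genes were called (23.6%) without a replicate block, and 6587 with it. Of the 2131 genes called in the gte4 background, 1219 were among them (57.2% of the first list and 23.1% of the second), and 1194 of the 1219 changed in the same direction. With the length trend removed 348 of 514 were shared (67.7%), 344 of them in the same direction. Both comparisons carry the length trend (rho 0.519 and 0.284), which by itself moves long and short genes alike in each. LAP5 changed by 1.41 in the gte4 background and 1.34 in wild type on the log2 scale, AOC2 by -0.69 and -0.74, LURP1 by -1.18 and -1.46 and ERF2 by -1.29 and -0.92, and none of these differences passed the interaction test (adjusted p = 0.941, 0.88, 0.563 and 0.617). The defence lists as wholes did not repeat their fall with GTE4 intact. For salicylic acid and immunity, 1 of 32 members was higher and 4 lower there, with a median log2 change of 0.07. For jasmonate, 2 of 33 were higher and 3 lower, with a median of 0.11. The interaction was called for 4 and 6 of their members.

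The difference between the 2 backgrounds was tested for every gene. It was called for 655 genes (2.94%), 227 with a higher (1.02%) and 428 with a lower log2 change (1.92%) in the gte4 background. A replicate block took that count to 1269. After the length correction 669 were called (3%), 264 higher (1.18%) and 405 lower (1.81%). Of the 2131 genes, 137 were among the 655 (6.43%). Without 1 library the count was 425 (WT replicate 3), 353 and 261 (eml1 eml2 replicates 1 and 2), 285 and 316 (gte4 replicates 1 and 2) or 380, 390 and 359 (triple mutant replicates 1, 2 and 3), and within 1.5 times of 655 without each of the other 4. The interaction calls named next held under every alternative run. EXL6 (AT1G75930), a lipase of the pollen coat, stood at 0.0, 0.0 and 0.919 in wild type, 53.0, 105.9 and 58.5 in eml1 eml2, 34.4, 36.4 and 36.6 in gte4 and 7.24, 19.1 and 13.6 in the triple mutant. It was thus raised by EML mutation where GTE4 was intact and lower where GTE4 was mutated, with an interaction of -7.27 on the log2 scale (adjusted p = 3.78e-06), a value that depends on the pseudocount because wild type was near 0. Its fall in the gte4 background alone (adjusted p = 0.0313) was lost in all 6 fits with a library left out, at 0.0953, 0.118 and 0.0511 without gte4 replicates 1, 2 and 3 and 0.111, 0.0501 and 0.0638 without triple mutant replicates 1, 2 and 3, and also with the length trend removed (0.0827), a pseudocount of 0.5 (0.0536), no filter (0.103) and no mean-variance trend (0.0682). NAC025 (AT1G61110), a NAC transcription factor, ran from 0.0, 0.965 and 1.83 in wild type to 63.4, 88.6 and 45.5 in eml1 eml2, and stood at 49.1, 33.2 and 30.0 in gte4 and 10.7, 22.5 and 15.7 in the triple mutant (interaction -6.36, adjusted p = 1.59e-05). Its fall in the gte4 background alone was not called in the main fit. Limma called that fall only with a pseudocount of 5 (0.0329), only the genotypes compared (0.0388) or a replicate block (0.049). With a library left out, its adjusted p ran from 0.0728 to 0.252. With GTE4 intact, flower markers were also higher in eml1 eml2. The 10 floral organ identity genes summed to 419 to 591 in wild type and 986 to 1354 in eml1 eml2, and the 7 tapetum markers to 150 to 303 and 1111 to 1694. In the gte4 background, the floral organ identity sum ran from 805 to 874 in gte4 and 870 to 1136 in the triple mutant. The tapetum sum ran from 528 to 812 and 558 to 939. It mixes GRP17 and GRP19, whose log2 changes there lay below 0, with MS2, ACOS5 and CYP704B1, which were called higher. The part of flower markers in the pollen coat interactions was not tested.

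CAX3 showed the crossing described for EXL6 at a higher level. It stood at 201.6, 164.0 and 245.4 in wild type and rose to 494.8, 459.3 and 507.9 in eml1 eml2, whereas it fell in the gte4 background (interaction -2.30, SE 0.186, adjusted p = 8.12e-06). COR15A moved the other way: it fell from 14868.4, 15205.6 and 14801.0 in wild type to 3195.8, 3735.3 and 3944.6 in eml1 eml2, a log2 change of -2.05, but by only -0.40 in the gte4 background, where it started low (interaction 1.65, adjusted p = 4.83e-08). The clock gene ELF4 (AT2G40080) and the cold gene KIN2 (AT5G15970) had the same form, with interactions of 0.72 (adjusted p = 0.00115) and 0.83 (adjusted p = 5.38e-05). In the gte4 background alone, the fall of ELF4 (log2 change -0.23, adjusted p = 0.043) was lost in 5 of the 6 fits with a library left out, all but that without triple mutant replicate 3 (0.0748 to 0.206), after the length correction (-0.04, 0.798, and 0.709 with the block), with no filter (0.148), without the mean-variance trend (0.118), with only the genotypes compared (0.0717) and with scaling by library totals (0.0795). That of KIN2 (-0.28, adjusted p = 0.0114) was lost without gte4 replicate 1 (0.058), gte4 replicate 2 (0.0688) or triple mutant replicate 2 (0.0631), with no filter (0.0683), without the mean-variance trend (0.0649) and after the length correction (-0.10, 0.317, and 0.241 with the block). AT5G60610, annotated in the F-box/RNI-like superfamily, fell from 37.2, 44.5 and 40.2 in wild type to 4.39, 7.6 and 9.77 in eml1 eml2 and stood at 8.55, 7.91 and 4.48 in gte4 and 11.8, 18.3 and 21.9 in the triple mutant (interaction 3.59, adjusted p = 0.00153). Its rise in the gte4 background (adjusted p = 0.0445) was lost in 5 of the 6 fits with a library left out, all but that without triple mutant replicate 1 (0.0822 to 0.145), with no filter (0.0974), without the mean-variance trend (0.067), with only the genotypes compared (0.0787) and after the length correction (0.0724).

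**Figure D4:**
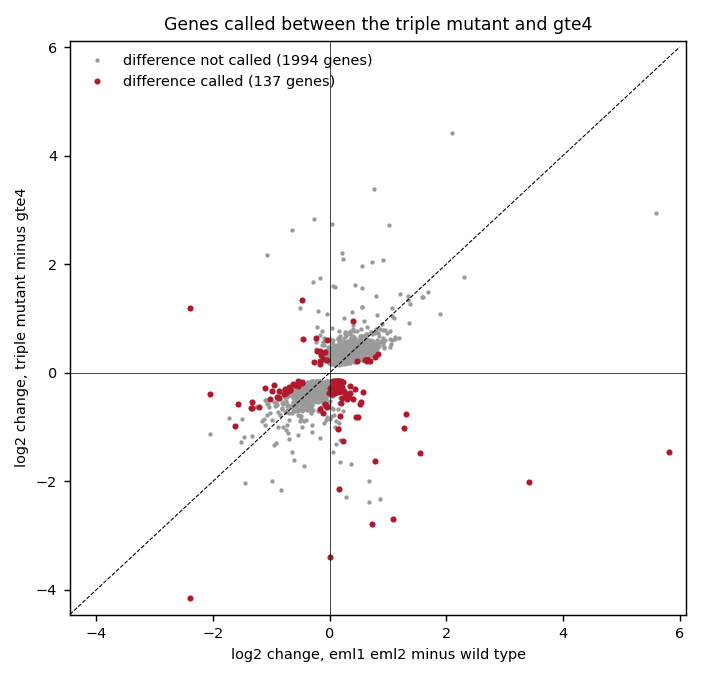
Log2 change of EML mutation with GTE4 intact (x axis, eml1 eml2 minus wild type) and with GTE4 mutated (y axis, triple mutant minus gte4) for the 2131 genes called in the second; the gap around 0 on the y axis comes from that choice. The dashed line marks equal change, and the 137 red genes are those whose difference between the backgrounds passed an adjusted p of 0.05.

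Genes beside the mutated loci were examined because linked sequence can travel with an allele. Of all genes tested, 9.55% were called. Among the 20 annotated genes on each side, 3 of 33 tested neighbours of EML1 were called, 1 of 29 of EML2 and 1 of 30 of GTE4. Those of EML1 were MS2, described above, AT3G12020, which was higher at 1097.9, 1244.4 and 1099.8 against 751.3, 639.2 and 907.0, and AT3G12260, which was lower at 2230.8, 2150.9 and 2293.6 against 2852.2, 2761.2 and 2452.3. The call of AT3G12020 (adjusted p = 0.0186) was lost without gte4 replicate 1 (0.0779), gte4 replicate 2 (0.0754) or triple mutant replicate 2 (0.0866), with no filter (0.0826) and without the trend (0.0618). That of AT3G12260 (adjusted p = 0.0153) was lost without the same libraries (0.0873, 0.0855 and 0.0767), with no filter (0.0749), without the trend (0.0682) and with the length trend removed (0.304, and 0.25 with a replicate block as well). With the length trend removed, 2, 0 and 0 of the tested neighbours of EML1, EML2 and GTE4 were called.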

How the data were processed

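RNA-seq libraries of 12 samples, 4 genotypes of 3, were used as 1 deposited table. Per the submitters' processing notes, bcl2fastq, HISAT2, edgeR and TAIR10 were used; versions, the counting program, the annotation and the strand are not given in the sources used here. The deposited values are a signal of read counts that the authors normalized before deposit, not whole numbers, with totals of 31990484 to 34322625 per library. No count test was used, so the planned branch for counts was not taken. Values were log2 transformed after adding 1, genes with a mean of at least 1 were kept, and a linear model with 1 term for each genotype was fitted to all 12 libraries in limma 3.58.1 (R 4.3.3), using its mean-variance trend and its robust moderation. A gene counts as called where its adjusted p (Benjamini-Hochberg over 22315 genes) is under 0.05, and every adjusted p printed comes from limma. For the length correction, a loess curve (span 0.5) of each library's deviation on log exon length, fitted on genes with a mean of at least 50, was subtracted. The script was tested on simulated data.

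The labels do not say whether samples of a genotype are separate plants or pools, so the p-values describe no more than the spread among these libraries, which may be technical. With 3 against 3 the smallest permutation p is 0.1. Same-numbered gte4 and triple mutant libraries had correlated deviations of 0.499, -0.0745 and 0.462, so the numbers were not taken to pair them; those of wild type and eml1 eml2 had 0.516, 0.121 and 0.576, which counts as paired, and the block took the calls of that comparison from 5271 to 6587. Unless a block is named, the values printed for that comparison, its overlaps and the interaction come from fits without it.

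Gene names, exon lengths and upstream windows come from RefSeq's TAIR10.1, where all 32548 gene IDs were found. The comparison, 33 gene lists (538 members paired with a RefSeq symbol, 510 tested) and the naming rule were chosen with earlier results of these data known. The rule took the 15 largest rises and falls among called genes with no overlap and a mean of at least 20, up to 4 called members per list, called genes within 20 genes of a mutated gene, the 8 largest interactions each way and 8 fixed genes. LAP6, LURP1, CAX3, ARP9, ACOS5, DRL1, CYCB1;2, WRKY54, ACD6, LOX3 and TCH4 were added after their values were seen. Alternatives were other pseudocounts, filters, scalings, fits, a replicate block, the length correction and each library left out.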

Additional observations from a re-analysis of the deposited data

Results flagged for a closer look

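The results below are genes whose log2 change on EML mutation differed between the gte4 background and wild type, by limma's interaction term at an adjusted p under 0.05. For each gene, the log2 change between eml1 eml2 and wild type was subtracted from that between the triple mutant and gte4. Where wild type lay near 0, the size of the result depends on the pseudocount. Of 39 such genes among those chosen for naming, 14 were called under every alternative run for them.

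Among these 14, the value was below 0 for EML2 (-1.77), the pollen coat genes GRP14 (-5.43) and EXL6 (-7.27), NAC025 (-6.36), the calcium-related genes CML41 (-3.04), CAX3 (-2.30) and AT1G21550 (-1.50), the protease inhibitor family member AT1G72290 (-5.79), and the uncharacterised AT1G26720 (-5.79) and AT1G75945 (-6.07). It was above 0 for the cold genes COR15A (1.65) and KIN2 (0.83), the clock gene ELF4 (0.72) and AT5G60610 (3.59).

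The other 25 lost the call under at least 1 alternative. Values below 0 were found for MAF5 (-3.77), AT1G73325 (-2.31), GRP19 (-7.18), AT1G68875 (-5.97), SHT (-5.82, a transferase of tapetum phenolamides), NIMIN1 (-1.18), the jasmonate repressors JAZ5 (-1.27) and JAZ10 (-0.89), the flavonoid enzymes TT4 (-0.78) and FLS1 (-0.65), and the ribosomal protein genes RPS5B (-0.35), RPS10B (-0.32) and RPS18A (-0.36). Values above 0 were found for PCC1 (0.65), RBCS2B (0.57), the clock gene ELF3 (0.37), ARP9 (0.55), CYP82C2 (3.96), AT2G43700 (3.50), AT1G48530 (3.35), AT2G23960 (2.51), AT1G76530 (2.43), AT3G44120 (2.28), AT1G27580 (2.21) and AT5G38212 (1.82).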

How the results depend on the processing

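The 2131 genes called between the triple mutant and gte4 became 514 with the length trend removed, 393 without the mean-variance trend and robust moderation, 574 with no filter on low values and 3358 with a replicate block, and ranged from 271 to 3023 with 1 library left out. With a mean of at least 20, a pseudocount of 0.5 or 5, the other scalings or only the 2 genotypes fitted, the count lay between 1715 and 2324. The 655 interaction calls became 245 without the trend, 272 with no filter, 1269 with a replicate block and 1462 with the block and the length trend removed, and ranged from 261 to 701 with 1 library left out. The 5271 calls of eml1 eml2 against wild type stayed within 1.5 times under every alternative run. Of 98 named genes called, the direction reversed only for HAC5 (-0.03 with the length trend removed, and -0.03 with the block as well) and RRS1 (-0.02 and -0.02). The cause of these changes was not tested beyond the length trend. In the check of pairing, 4 of the 6 libraries correlated best with the same number in the other genotype, a hint from the data and not from the design; the replicate block kept the call of all 98 genes and took the members lower from 8 to 15 for salicylic acid and immunity, from 8 to 14 for jasmonate and from 0 to 3 for glucosinolate synthesis, and those higher from 5 to 9 for mitosis.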

Other observations

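Groups not described above changed in few members. Of 22 circadian clock genes 3 were higher and 1 lower (1 and 0 with the length trend removed), and of 15 floral repressors 1 was higher and 2 lower (0 and 2). Of 15 anthocyanin and flavonoid genes 2 were lower, of 14 trichome genes 2 were lower, and of 12 senescence genes 1 was lower, with 0 called in each of these 3 lists once the length trend was removed (2, 2 and 3 at an unadjusted p under 0.05). Of 15 iron genes 2 were lower, 1 of them with the trend removed. Of 25 cold, drought and abscisic acid genes 2 were lower, and with the trend removed 1 was lower and 1 higher. Of 14 stomata and guard cell genes 1 was higher, as was 1 of 6 other GTE bromodomain genes, both lost with the trend removed, and 1 of 7 histone and SWR1 genes, PIE1 (adjusted p = 0.0148, lost at 0.0683, 0.0811 and 0.0659 without gte4 replicate 1, gte4 replicate 2 and triple mutant replicate 2, at 0.0667 with no filter and 0.0528 without the mean-variance trend). Of 10 root-enriched genes limma called 0 (0 at an unadjusted p under 0.05), and of 8 reference genes 0 (1), and the 1 tested seed storage gene was not called. Leaving out gte4 replicate 1, gte4 replicate 2 or triple mutant replicate 2 took the clock list to 0 called, and the anthocyanin list kept its 2 only without gte4 replicate 3. The trichome, senescence and stomata lists had 0 called without gte4 replicate 1 or 2, the GTE list 0 without any library but gte4 replicate 3, and the cold list 5 lower without gte4 replicate 3.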
